A study of Mus musculus with 8 samples.

Results

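Gut epithelial genes were measured on arrays of sorted macrophages and monocytes, cells of another lineage. The list held 36 genes, chosen by gene symbol: 17 general epithelial genes, goblet cell genes and colonocyte genes. Of these, 35 were measured (17 general epithelial, 8 goblet and 10 colonocyte) among 21418 genes in all, and Fcgbp was not analysed here. Where probe sets shared a gene, the one with the highest mean over the 8 arrays was used. All mice were C57BL/6 with the genotype Cx3cr1gfp/+, in which 1 copy of the fractalkine receptor gene carries a green reporter, and none was treated. Cells were sorted from fresh tissue broken up with Collagenase VIII. The groups were F4/80-high tumour-associated macrophages (F4/80-high TAM) and Ly6C-high tumour-infiltrating macrophages (Ly6C-high TAM) from orthotopic colorectal tumours, steady-state lamina propria macrophages of the colon (colon macrophages), and Ly6C-high monocytes of the spleen (spleen monocytes), each with 2 arrays. Both arrays of each tumour group were labelled male, colon replicate 1 male and replicate 2 female, and spleen replicate 1 male and replicate 2 mixed. Ages are not given in the labels, nor is it stated if replicates came from different mice, and p-values measure only the spread between these samples.

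The lining of the colon is a single sheet of epithelial cells. Absorptive colonocytes carry transporters, carbonic anhydrases and a brush border, and goblet cells make the mucus that separates bacteria from the tissue. The sheet is held together by E-cadherin and claudins, its cytoskeleton is built on keratins, and intestinal identity rests on transcription factors such as CDX1, CDX2 and HNF4A. Macrophages lie directly beneath this sheet in the lamina propria and take up dying epithelial cells, whereas the spleen has no such epithelium.

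Values are log2 expression after robust multi-array averaging (RMA), and a difference of 1 on this scale is a fold of 2. The median over all probe sets lay between 6.84 and 7.07 on the 8 arrays. Markers of the sorted cells were high in all groups: Csf1r, which encodes a growth factor receptor of macrophages, averaged between 12.64 and 12.92. Adgre1, which encodes F4/80, averaged 12.40 ± 0.12 in F4/80-high TAM (SD, n = 2), 11.54 ± 0.55 in Ly6C-high TAM (n = 2), 12.87 ± 0.06 in colon macrophages (n = 2) and 12.04 ± 0.03 in spleen monocytes (n = 2). Ly6c2, a gene of the Ly6C antigen, averaged 11.24 ± 0.47 in F4/80-high TAM and 12.86 ± 0.21 in Ly6C-high TAM, against 10.03 ± 0.19 in colon macrophages and 12.92 ± 0.02 in spleen monocytes (SD, n = 2 each). The replicate 2 arrays of both tumour groups stood apart from replicate 1 for the epithelial genes, so results on the tumour groups are given with both arrays and without them.

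Promoter sequences were available in RefSeq for 26 of the 35 genes, as windows from 250 bases before to 50 after the annotated start. They were searched on both strands for TTTATNG, the core bound by CDX factors, for CAAAGNNCA, a form of the site bound by HNF4A, and for the TATA box TATAAA. The CDX-type core was in 6 of the 26 windows (23.1%), namely Epcam, Krt20, Agr2, Car4, Aqp8 and Cyp2c55, and in 12.5% of the windows of 27025 genes. The HNF4-type site was in 3 (11.5%; Muc3, Slc26a3 and Phgr1), against 7.27% of all genes. The TATA box was in 7 (26.9%; Krt8, Krt20, Muc2, Car4, Slc26a3, Cyp2c55 and Mptx1), against 15.7% of all genes. The 3 printed here are from build GRCm38.p6, 5′ to 3′ on the strand of the gene: Cyp2c55 and Krt20, colonocyte genes whose windows hold both a CDX-type core and a TATA box, and Krt8, the member with the highest level in tumour replicate 2 relative to colon. Capitals mark the matches. In Cyp2c55 (chr19:39006769-39007068, plus strand) the CDX-type core begins at -232 and the TATA box at -29 from the annotated start, without overlap. In Krt20 (chr11:99438104-99438403, minus strand) the core at -30 and the TATA box at -29 overlap, so that 1 stretch matches both. In Krt8 (chr15:102004293-102004592, minus strand) 2 TATA matches on opposite strands overlap and there is no CDX-type match. They begin at -3 and -1, at the annotated start itself and not near -29 as in Cyp2c55 and Krt20. A match describes the letters of the window and is no evidence of binding.
Cyp2c55: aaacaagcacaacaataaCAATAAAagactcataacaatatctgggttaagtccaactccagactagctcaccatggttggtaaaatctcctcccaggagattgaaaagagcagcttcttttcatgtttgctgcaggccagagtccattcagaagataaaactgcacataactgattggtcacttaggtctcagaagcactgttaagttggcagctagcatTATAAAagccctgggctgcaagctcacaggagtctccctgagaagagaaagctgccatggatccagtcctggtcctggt
Krt20: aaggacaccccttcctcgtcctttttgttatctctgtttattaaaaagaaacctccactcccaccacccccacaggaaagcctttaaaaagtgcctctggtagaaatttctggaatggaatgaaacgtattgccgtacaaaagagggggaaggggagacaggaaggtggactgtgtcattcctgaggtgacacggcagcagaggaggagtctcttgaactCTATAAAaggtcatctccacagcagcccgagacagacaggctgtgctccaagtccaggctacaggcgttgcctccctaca
Krt8: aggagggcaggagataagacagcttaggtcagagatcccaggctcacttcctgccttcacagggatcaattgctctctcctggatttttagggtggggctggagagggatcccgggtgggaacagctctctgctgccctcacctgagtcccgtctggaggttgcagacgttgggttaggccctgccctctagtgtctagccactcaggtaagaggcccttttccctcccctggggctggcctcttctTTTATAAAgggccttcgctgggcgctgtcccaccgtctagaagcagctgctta

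Colon macrophages carried the epithelial genes at far higher levels than spleen monocytes. A gene was called when limma gave a fold of at least 2 with an adjusted p, over all genes, of at most 0.05. By this rule 34 of 35 members were higher in colon macrophages, against 6.93% of all genes. None was lower, against 4.0% of all genes, and none at an unadjusted p under 0.05, against 16.9% of all genes. The calls took in 16 of 17 general epithelial, 8 of 8 goblet and 10 of 10 colonocyte genes, and the exception was Ceacam1. The median difference was 4.84 over the members and -0.07 over all genes. Both colon arrays lay above both spleen arrays for 35 of 35 members, against 24.8% of all genes. More cells carrying these RNAs and more RNA per cell cannot be told apart in such bulk samples. Which cells the RNA came from was not tested. The number of calls depended on single arrays: it was 21 without colon replicate 1 (6.45% of all genes), 12 without colon replicate 2 (4.04%), 15 without spleen replicate 1 (3.57%) and 12 without spleen replicate 2 (3.27%), with the direction unchanged for every called member. Genes of unrelated tissues, chosen by list as a level for unexpressed genes, had median log2 values between 5.65 and 5.99 on the 8 arrays. Cyp2c55, Krt20, Mptx1, Phgr1, Retnlb, Slc26a3 and Tspan8 lay at or below that median on both spleen arrays, so their differences from spleen monocytes are measured values and their folds are given as bounds, with that median in place of the lower value. This use of the level was chosen after the values were seen. With these 7 genes at their bound the median difference over the members was 4.56.

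**Figure D1:**
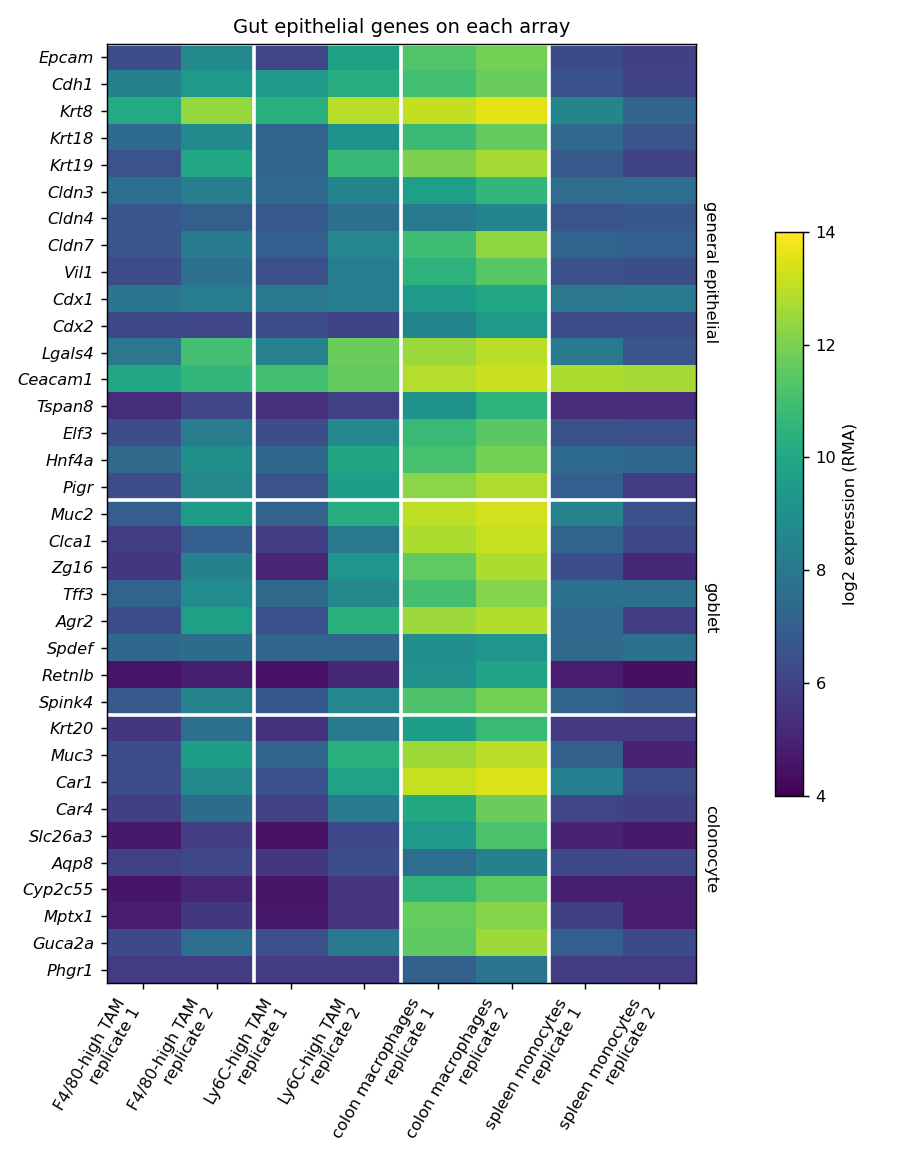
Log2 expression of the 35 measured epithelial genes (rows, grouped into general epithelial, goblet and colonocyte) on each of the 8 arrays (columns); colour runs from dark (4) to bright (14). Both colon columns are bright for nearly every gene, the replicate 2 columns of the tumour groups are intermediate, and Ceacam1 is bright in the spleen columns too.

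Among the general epithelial genes, Epcam encodes an epithelial adhesion molecule. It stood at 11.30 and 11.92 in colon macrophages, against 6.24 and 5.90 in spleen monocytes, a difference of 5.54 ± 1.20 (log2 ± SE; limma adjusted p = 0.0221). The groups did not overlap. Krt19, a simple-epithelium keratin, was 12.04 and 12.67 in colon macrophages and 6.83 and 6.05 in spleen monocytes. Pigr, the receptor that carries IgA across the epithelium, was 12.28 and 12.81 in colon macrophages, against 6.99 and 5.78 in spleen monocytes, and rose by 6.16 ± 1.11 (adjusted p = 0.0115). Colon arrays were again far above spleen arrays for both genes. Hnf4a, a nuclear receptor of gut and liver epithelium, was 11.11 and 11.92 in colon macrophages, against 7.48 and 7.38 in spleen monocytes. Cdx2, the intestinal identity factor, was 8.58 and 9.35 in colon macrophages, against 6.29 and 6.36 in spleen monocytes, a difference of 2.64 ± 0.25 (adjusted p = 0.00111). Elf3, an epithelial transcription factor of the ETS family, was 10.73 and 11.46 in colon macrophages, against 6.49 and 6.45 in spleen monocytes. Tspan8, a tetraspanin of gut epithelium, was 9.10 and 10.47 in colon macrophages, against 5.28 and 5.27 in spleen monocytes, and so at least 3.85 higher on the log2 scale (adjusted p = 0.00166). The claudin gene Cldn7 was 10.88 and 12.33 in colon macrophages, against 7.19 and 7.0 in spleen monocytes. All colon arrays were above all spleen arrays for these genes too. Cldn3, another claudin gene, was 9.64 and 10.61 in colon macrophages, against 7.57 and 7.61 in spleen monocytes, a difference of 2.54 ± 0.44 (adjusted p = 0.00965). The smallest called differences in this class were those of Cldn4, a claudin of tight junctions, at 1.64 ± 0.31 (adjusted p = 0.0136), and Cdx1, the close relative of Cdx2, at 1.66 ± 0.20 (adjusted p = 0.00276).

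The goblet genes were higher in colon macrophages as a class, with a median difference of 5.26. Muc2, the main gel-forming mucin of the colon, was 13.04 and 13.31 in colon macrophages, against 8.49 and 6.52 in spleen monocytes. Spleen replicate 1 thus stood above replicate 2, and both lay far below the colon arrays. Clca1, a protease of the mucus layer, was 12.76 and 13.13 in colon macrophages, against 7.18 and 6.17 in spleen monocytes, a difference of 6.27 ± 0.76 (limma adjusted p = 0.00275). Zg16, a mucus lectin that binds bacteria, was 11.56 and 12.77 in colon macrophages, against 6.38 and 5.17 in spleen monocytes. For Retnlb, an antibacterial peptide of colonic goblet cells, colon macrophages had 9.07 and 9.77 and spleen monocytes had 4.76 and 4.39, a fold of at least 11.2 (adjusted p = 0.000293). The groups did not overlap for these genes. Tff3, a trefoil peptide secreted with mucus, was 11.07 and 12.17 in colon macrophages, against 7.67 and 7.69 in spleen monocytes, a difference of 3.94 ± 0.64 (adjusted p = 0.00756). Spdef, a transcription factor of goblet cell maturation, differed least in the class, by 1.50 ± 0.16 (adjusted p = 0.0019).

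The colonocyte genes had a median difference of 5.43. Muc3, a membrane mucin of the brush border, had the largest difference of all members, with 12.56 and 12.96 in colon macrophages, against 7.06 and 4.98 in spleen monocytes (6.74 ± 1.36; limma adjusted p = 0.0168). Mptx1, a pentraxin of the mouse gut epithelium, was 11.64 and 12.19 in colon macrophages, against 5.90 and 4.75 in spleen monocytes. Cyp2c55, a cytochrome P450 of the large intestine, was 10.52 and 11.47 in colon macrophages, against 4.89 and 4.83 in spleen monocytes, at least 33.4-fold higher (adjusted p = 0.000371). In each case the colon arrays formed a separate, higher pair. Car1, a carbonic anhydrase of colonocytes that red cells also carry, was 13.12 and 13.47 in colon macrophages, against 8.32 and 6.34 in spleen monocytes. Slc26a3, the chloride-bicarbonate exchanger of the colon, was 9.37 and 11.15 in colon macrophages, against 4.96 and 4.69 in spleen monocytes. The 2 colon arrays differed by 1.79 for this gene, the widest gap between colon replicates among the members. Aqp8, a water channel, and Phgr1, a small gut protein, had the smallest measured differences, 1.82 ± 0.31 and 1.71 ± 0.23 (adjusted p = 0.00951 and 0.00421).

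**Figure D2:**
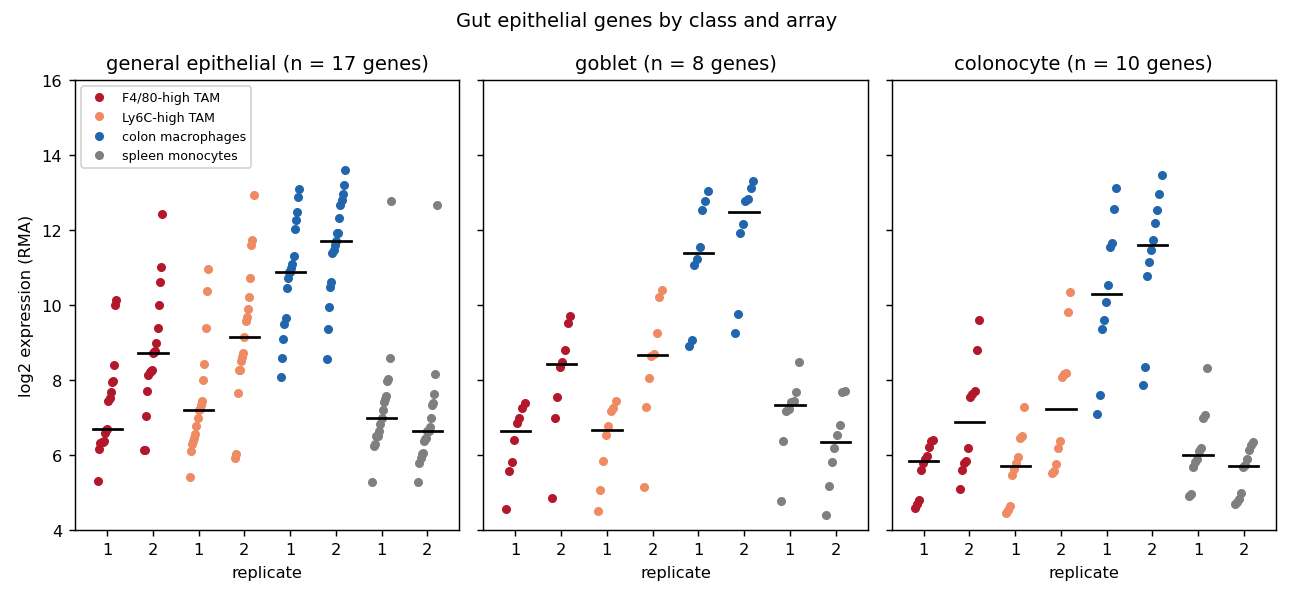
Log2 expression of each member (points) on each array, in panels for the 17 general epithelial, 8 goblet and 10 colonocyte genes; black lines mark the median of the panel's genes on that array, and colours mark the groups. In all 3 panels the colon medians are highest, and in both tumour groups replicate 2 has a higher median than replicate 1.

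Tumour macrophages of both kinds carried these genes at lower levels than colon macrophages. In F4/80-high TAM, 26 of 35 members were lower than in colon macrophages (limma, same thresholds), against 3.72% of all genes, and none was higher, against 2.68%. In Ly6C-high TAM, 23 were lower, against 4.16% of all genes, and none was higher, against 2.74%. No member was higher at an unadjusted p under 0.05 in either comparison, against 17.0% and 13.8% of all genes. These comparisons share the colon arrays. The called genes in F4/80-high TAM were 12 of 17 general epithelial, 6 of 8 goblet and 8 of 10 colonocyte genes, and in Ly6C-high TAM 10, 5 and 8. The median difference over the members was -3.92 in F4/80-high TAM and -3.56 in Ly6C-high TAM, beside 0.05 and -0.01 over all genes. Both tumour arrays lay below both colon arrays for 35 of 35 members in each comparison, against 18.1% of all genes for F4/80-high TAM and 21.6% for Ly6C-high TAM. The counts rested on single arrays, and the share of all genes moved with them. For F4/80-high TAM there were 11 calls without its replicate 1, 17 without its replicate 2, 17 without colon replicate 1, 10 without colon replicate 2 and 16 without either spleen array, beside 1.49% to 3.59% of all genes. For Ly6C-high TAM there were 9 without colon replicate 2 (2.12% of all genes) and 15 without either spleen array (2.88%). Without both tumour replicate 2 arrays, 35 of 35 members were lower in each comparison, beside 4.69% of all genes in F4/80-high TAM and 5.36% in Ly6C-high TAM. Each tumour group then had 1 array, assumed to vary like the colon and spleen groups. The arrays left out were chosen after the members' values were seen.

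**Figure D3:**
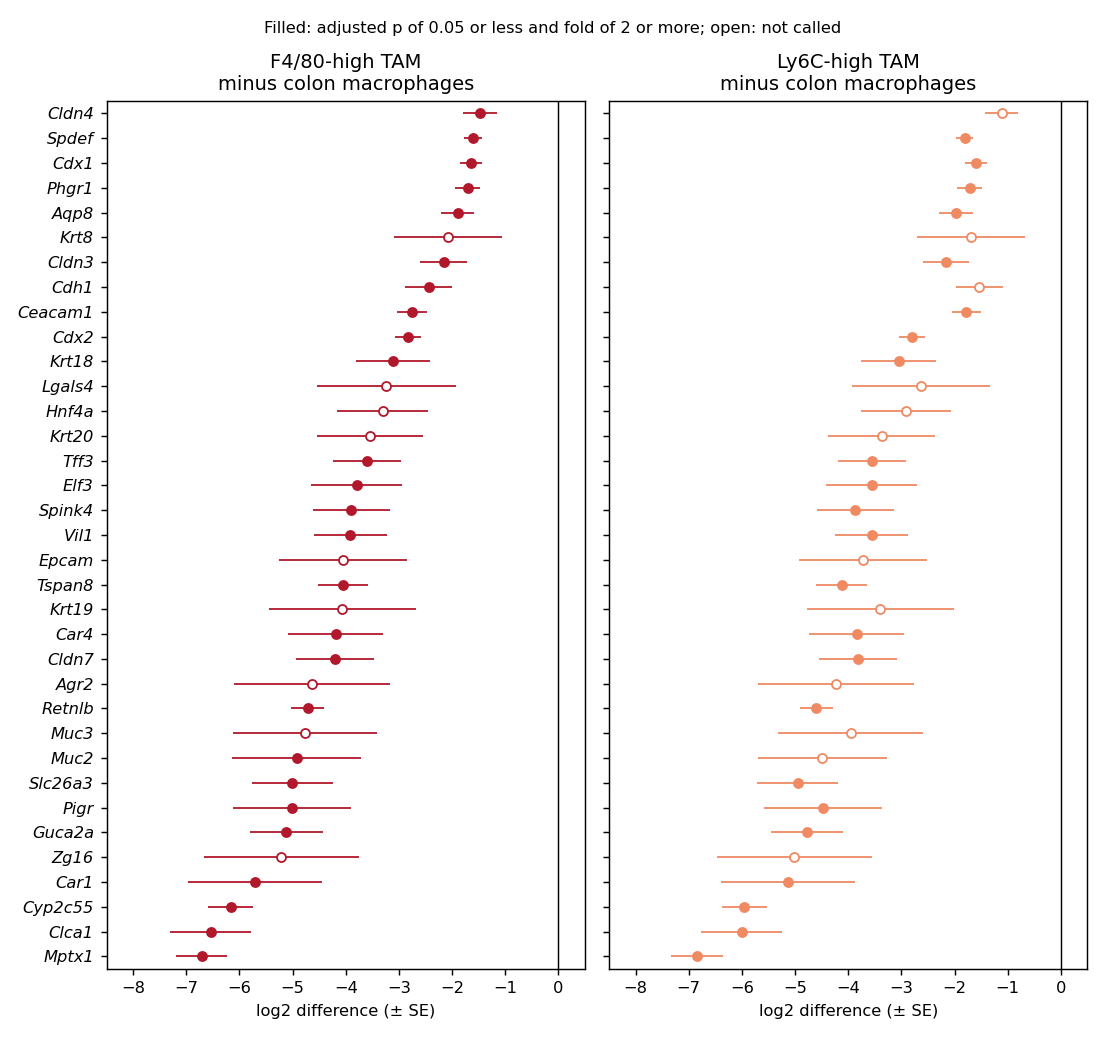
Log2 difference from colon macrophages (± SE from limma) for each member in F4/80-high TAM (left) and Ly6C-high TAM (right); filled points pass the thresholds and open points do not. All 35 points in both panels lie below 0, from -6.71 to -1.48 on the left and from -6.84 to -1.11 on the right.

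Among the members furthest below colon macrophages were colonocyte and goblet genes. Mptx1, Cyp2c55 and Retnlb lay at or below the median of the genes of unrelated tissues on all 4 tumour arrays, so their folds are bounds. Mptx1 was 4.80 and 5.60 in F4/80-high TAM, 4.65 and 5.50 in Ly6C-high TAM and 11.64 and 12.19 in colon macrophages. It was at least 66.0-fold lower in F4/80-high TAM (limma adjusted p = 0.00155) and at least 70.9-fold lower in Ly6C-high TAM (adjusted p = 0.000823). Clca1 was 5.82 and 6.99 in F4/80-high TAM and 5.82 and 8.06 in Ly6C-high TAM, and so 93.1-fold and 64.2-fold lower than in colon macrophages. Its tumour arrays lay far below both colon arrays, and replicate 1 of each tumour group was also below the unrelated genes' median. Cyp2c55 was 4.57 and 5.09 in F4/80-high TAM and 4.52 and 5.56 in Ly6C-high TAM, which made it at least 34.9-fold and 37.5-fold lower (adjusted p = 0.00136 and 0.000836). Retnlb was at least 11.7-fold lower in F4/80-high TAM and at least 12.6-fold lower in Ly6C-high TAM (adjusted p = 0.00116 and 0.000686). Guca2a, which encodes guanylin, a peptide that regulates fluid secretion, fell by 5.12 ± 0.69 in F4/80-high TAM and by 4.78 ± 0.69 in Ly6C-high TAM (adjusted p = 0.00802 and 0.00825). Tspan8 was 5.31 and 6.14 in F4/80-high TAM and 5.40 and 5.92 in Ly6C-high TAM, and fell by 4.06 ± 0.47 and 4.12 ± 0.47 (adjusted p = 0.00556 and 0.004). Tff3 was 7.24 and 8.81 in F4/80-high TAM and 7.44 and 8.70 in Ly6C-high TAM, and Elf3 was 6.38 and 8.23 in F4/80-high TAM and 6.36 and 8.72 in Ly6C-high TAM. Both were called lower in each tumour group, as were Cldn7, which fell by 4.20 ± 0.73 and 3.81 ± 0.73, and Cldn3, which fell by 2.16 ± 0.44 in each (adjusted p = 0.0263 and 0.0258).

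The 9 members without a call in F4/80-high TAM had gaps of 1.53 to 3.43 between its replicates. Some called members had gaps in the same range, among them Muc2 (2.53), Car1 (2.41) and Pigr (2.36). Krt8, the partner of Krt18 in simple epithelia, was 10.13 and 12.42 in F4/80-high TAM, 10.38 and 12.94 in Ly6C-high TAM and 13.10 and 13.60 in colon macrophages. Tumour replicate 2 came close to the colon arrays while replicate 1 lay well below, and the differences were -2.08 ± 1.02 and -1.69 ± 1.02 (limma adjusted p = 0.265 and 0.385). Lgals4, a gut epithelial galectin, was 7.97 and 11.00 in F4/80-high TAM, 8.44 and 11.74 in Ly6C-high TAM and 12.48 and 12.97 in colon macrophages. Its differences were -3.24 ± 1.30 and -2.63 ± 1.30 (adjusted p = 0.172 and 0.28). The others were Epcam, Krt19, Krt20, Hnf4a, Muc3, Zg16 and Agr2, with differences from -5.21 to -3.30. Ly6C-high TAM lacked a call for the same 9 genes and for Muc2, Cdh1 and Cldn4. Agr2, a disulfide isomerase needed for mucin folding, had 6.39 and 9.70 in F4/80-high TAM and 6.53 and 10.39 in Ly6C-high TAM, against 12.54 and 12.84 in colon macrophages.

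Cdx2, Spdef and Phgr1 differed little between tumour replicates. Cdx2 was 6.15 and 6.13 in F4/80-high TAM, 6.30 and 6.03 in Ly6C-high TAM, 8.58 and 9.35 in colon macrophages and 6.29 and 6.36 in spleen monocytes. It fell by 2.83 ± 0.25 in F4/80-high TAM and by 2.80 ± 0.25 in Ly6C-high TAM relative to colon macrophages (limma adjusted p = 0.0027 and 0.00183). Its 4 tumour values thus lay close to those of the spleen arrays. Spdef had 7.39 and 7.54 in F4/80-high TAM and 7.25 and 7.28 in Ly6C-high TAM, against 8.90 and 9.25 in colon macrophages. Phgr1 was between 5.76 and 5.78 on all 4 tumour arrays, against 7.10 and 7.86 in colon macrophages and 5.81 and 5.73 in spleen monocytes.

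Set against spleen monocytes, the tumour groups showed few differences that passed the test. In F4/80-high TAM, 1 of 35 members was higher (4.58% of all genes) and 1 lower (2.37% of all genes). In Ly6C-high TAM, 1 was higher (2.88%) and 1 lower (1.62%). The higher gene was Cdh1 and the lower gene Ceacam1 in both comparisons, which share the spleen arrays. No goblet or colonocyte gene was called in either direction by limma, also at an unadjusted p under 0.05. The median difference over the members was 0.45 in F4/80-high TAM and 0.70 in Ly6C-high TAM, against -0.02 and -0.08 over all genes. Groups did not overlap, with tumour higher, for 6 members in F4/80-high TAM (29.6% of all genes) and 7 in Ly6C-high TAM (21.9%). With tumour lower, they did not overlap for 2 members in each, against 31.1% and 38.8% of all genes. Leaving out both tumour arrays of the same number was chosen after the members' values were seen. It left 1 array in each tumour group, assumed to vary like the colon and spleen groups. Counts from it only describe the arrays that were kept. Without both tumour replicate 2 arrays the higher count was 2 in F4/80-high TAM (5.63% of all genes) and 1 in Ly6C-high TAM (3.72%). Without both tumour replicate 1 arrays it was 14 (8.36% of all genes) and 16 (8.79%). The single call in F4/80-high TAM was lost without its replicate 2 or either spleen array, and the higher count was 2 without either Ly6C-high TAM array (5.92% of all genes). In Ly6C-high TAM the higher count was 5 without its replicate 1 (7.83% of all genes) and 0 without spleen replicate 2 (1.13%).

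Cdh1, which encodes E-cadherin, was the 1 member above spleen monocytes on every tumour array by a margin that passed the test. It was 8.40 and 9.40 in F4/80-high TAM, 9.39 and 10.22 in Ly6C-high TAM, 10.98 and 11.70 in colon macrophages and 6.50 and 6.01 in spleen monocytes. It was 6.23-fold higher in F4/80-high TAM (2.64 ± 0.44; limma adjusted p = 0.0131) and 11.7-fold higher in Ly6C-high TAM (3.55 ± 0.44; adjusted p = 0.00603) than in spleen monocytes. The order of the groups was colon macrophages, Ly6C-high TAM, F4/80-high TAM and spleen monocytes, and the tumour groups overlapped. Cdh1 was also lower in F4/80-high TAM than in colon macrophages (-2.44 ± 0.44; adjusted p = 0.0194), a call that was lost without F4/80-high TAM replicate 1 (adjusted p = 0.0788) or colon replicate 2 (adjusted p = 0.101). Krt8 was likewise above the spleen arrays (8.58 and 7.32) on all 4 tumour arrays, by 3.32 ± 1.02 in F4/80-high TAM and 3.71 ± 1.02 in Ly6C-high TAM, without passing the test (adjusted p = 0.0916 and 0.0915).

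Ceacam1, an adhesion receptor that myeloid cells also carry, departed from the other members. It was 9.99 and 10.61 in F4/80-high TAM, 10.96 and 11.59 in Ly6C-high TAM, 12.89 and 13.21 in colon macrophages and 12.78 and 12.67 in spleen monocytes. Colon and spleen arrays lay close together, with a difference of 0.33 ± 0.28 (limma adjusted p = 0.528), and all tumour arrays lay below them. It was 5.38-fold lower in F4/80-high TAM than in spleen monocytes (adjusted p = 0.00327) and 2.73-fold lower in Ly6C-high TAM (adjusted p = 0.0308). The call in Ly6C-high TAM was lost without either colon array (adjusted p = 0.0652) or either spleen array (adjusted p = 0.199 and 0.175). Against colon macrophages it fell by 2.75 ± 0.28 in F4/80-high TAM and by 1.78 ± 0.28 in Ly6C-high TAM (adjusted p = 0.00379 and 0.0112). Without colon replicate 2 the call in Ly6C-high TAM was lost here too (adjusted p = 0.0747).

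Between the tumour groups, none of the 35 members was called higher in F4/80-high TAM (0.168% of all genes) or lower (0.098%). At an unadjusted p under 0.05, limma gave 0 higher (6.04% of all genes) and 1 lower (2.54% of all genes), Ceacam1. Its difference was -0.98 ± 0.28 (adjusted p = 0.319), and both F4/80-high arrays lay below both Ly6C-high arrays. Cdh1 came next, at -0.91 ± 0.44 (adjusted p = 0.672), with overlapping groups. On arrays of the same number, Cdh1 was lower in F4/80-high TAM each time (8.40 against 9.39, and 9.40 against 10.22). This fit did not pair arrays by number. With a replicate block, limma called neither gene (adjusted p = 0.194 for Ceacam1 and 0.493 for Cdh1). The median difference was -0.33 over the members and 0.05 over all genes.

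Replicate 2 exceeded replicate 1 for nearly every member in both tumour groups. In F4/80-high TAM this held for 34 of 35 members, 22 of them by at least 1 on the log2 scale, with a median gap of 1.40, beside -0.08 over all genes, of which 38.6% were higher on replicate 2. In Ly6C-high TAM it held for 33 of 35, 24 of them by at least 1, with a median gap of 1.82, beside -0.09 over all genes, of which 38.3% were higher. Krt19 had the widest gap in F4/80-high TAM (6.57 on replicate 1 and 10.00 on replicate 2), and Zg16 in Ly6C-high TAM (5.07 and 9.24). Cdx2 had no higher value on replicate 2 in either group. Across the 35 genes, which are not independent replicates, the gaps of the tumour groups had a Pearson r of 0.944. Colon replicate 2 was above replicate 1 for 35 of 35 members, with a median gap of 0.71, and 8 of them by at least 1. Of all 21418 genes, 47.9% were higher on colon replicate 2, 342 of them by at least 1, with a median gap of -0.015. In colon the replicate and the sex label cannot be told apart. In spleen, replicate 2 was higher for 7 of 35, beside 52.0% of all genes. The median gap was -0.26, beside 0.01 over all genes. The lowest spleen gaps were those of Muc3 (-2.08), Car1 (-1.98) and Muc2 (-1.96).

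**Figure D4:**
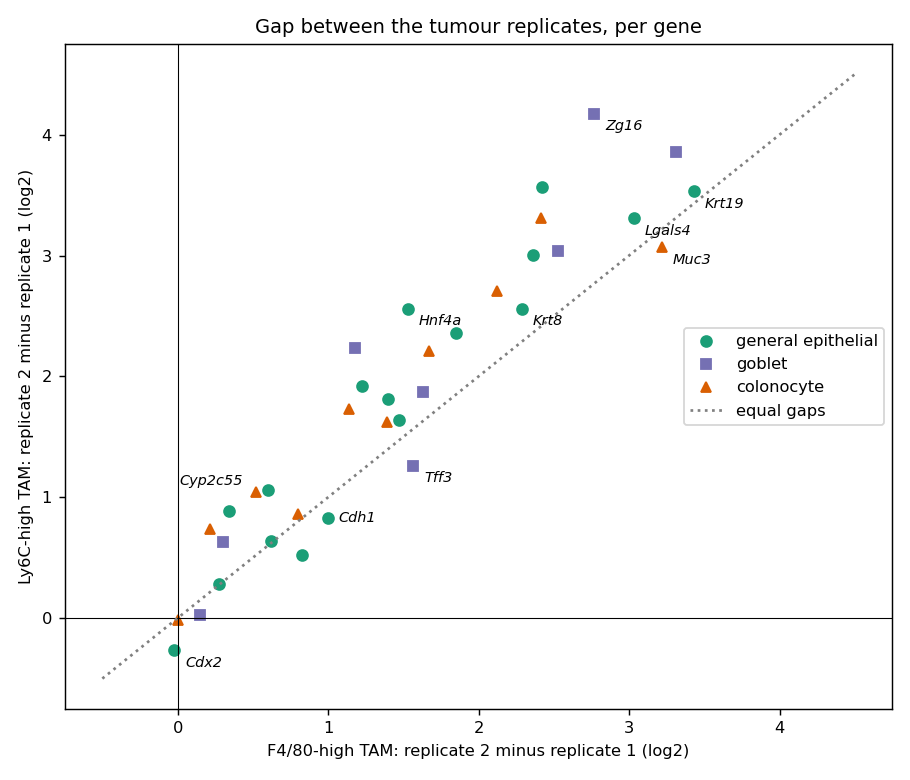
Gap between replicates (replicate 2 minus replicate 1, log2) of each member in F4/80-high TAM (horizontal axis) and Ly6C-high TAM (vertical axis), by class, with 10 genes named; the dotted line marks equal gaps. Nearly all points lie above 0 on both axes, up to 3.43 and 4.17, and Cdx2 lies at or below 0 on both.

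Genes of several other cell types moved with the same arrays, though not those of every type. All 12 fibroblast genes were higher on replicate 2 in both tumour groups, with median gaps of 1.37 in F4/80-high TAM and 1.58 in Ly6C-high TAM. Their summed linear signal was 6801 and 12734 in F4/80-high TAM, 7366 and 16982 in Ly6C-high TAM, 5150 and 6473 in colon macrophages and 1580 and 1605 in spleen monocytes. Pdpn, 1 of these genes, had log2 values of 11.59 and 12.18 in F4/80-high TAM and 10.71 and 11.30 in Ly6C-high TAM. It had 8.59 and 8.89 in colon macrophages. It made up much of the F4/80-high sums, which therefore do not rank that group against colon macrophages for the list as a whole. Dcn, another of these genes, had 11.50 and 12.56 in Ly6C-high TAM, against 10.41 and 11.00 in colon macrophages. The Ly6C-high sums thus also rest in large part on single genes. The 35 epithelial members summed to 5583 and 19362 in F4/80-high TAM, 7307 and 30192 in Ly6C-high TAM, 102940 and 157603 in colon macrophages and 11679 and 9604 in spleen monocytes. Ceacam1 made up 60.2% and 67.9% of the spleen sums, and 6.01% to 27.2% of the others. Without Ceacam1 the sums were 4568 and 17804 in F4/80-high TAM, 5321 and 27103 in Ly6C-high TAM, 95334 and 148133 in colon macrophages and 4645 and 3087 in spleen monocytes, so replicate 1 of F4/80-high TAM lay between the spleen arrays. All 8 endothelial genes were also higher on replicate 2 of both tumour groups (median gaps 0.60 and 1.14). T cell and innate lymphoid genes were higher there for 10 of 11 in each group, and B cell and plasma cell genes for 7 of 9. Neutrophil genes were higher there for 5 of 10 in F4/80-high TAM and 4 of 10 in Ly6C-high TAM. The counts were 4 of 12 and 3 of 12 for tuft cell genes, and 2 of 8 in each for enteric glia and nerve genes. Macrophage and monocyte genes were higher there for 7 of 21 in F4/80-high TAM, near the 38.6% of all genes, and for 2 of 21 in Ly6C-high TAM, beside 38.3%. The part of these cell types in the epithelial values was not tested.

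Counted per array, replicate 1 of either tumour group showed few members above the spleen level. On replicate 1 of F4/80-high TAM, 2 of 35 members were at least 1 above the higher spleen array (5.39% of all genes), and on replicate 2 there were 18 (8.18%). For Ly6C-high TAM the counts were 2 on replicate 1 (3.74%) and 22 on replicate 2 (8.58%). Each colon array had 34 (6.92% and 9.11%). By class, F4/80-high TAM replicate 2 had 10 of 17 general epithelial, 5 of 8 goblet and 3 of 10 colonocyte genes, and Ly6C-high TAM replicate 2 had 11, 5 and 6.

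As a share of the colon mean on the linear scale, the class medians on the tumour replicate 2 arrays were in the order general epithelial, goblet and colonocyte. The median general epithelial gene reached 17.2% of its colon mean in F4/80-high TAM and 30.6% in Ly6C-high TAM. The median goblet gene reached 9.68% and 12.5%, and the median colonocyte gene 6.40% and 10.9%. On spleen arrays the medians were 4.14% and 3.93% for general epithelial, 3.84% and 1.99% for goblet and 2.94% and 1.74% for colonocyte genes. Since genes of unrelated tissues also gave signal, a share holds some of it. Krt8 was at the top, with 51.6% in F4/80-high TAM replicate 2 and 74.0% in Ly6C-high TAM replicate 2, against 3.62% and 1.51% in spleen monocytes. Mptx1 was at the bottom, with 1.24% and 1.15%, against 1.52% and 0.684% in spleen monocytes, and Cyp2c55 had 1.58% and 2.19%, against 1.38% and 1.32%. The colonocyte class was not uniform. Krt20, a keratin of mature colonocytes, reached 16.4% and 22.8%, against 4.0% and 4.05% in spleen monocytes. Muc3 reached 11.2% and 18.5%, against 1.91% and 0.451%, and Car4, a membrane carbonic anhydrase, 8.39% and 12.8%, against 3.05% and 2.67%. These 3 genes thus stood above their spleen values on both arrays, but they were not alone in this. The same held for Car1 (4.39% and 8.91%, against 3.16% and 0.798%) and Guca2a (4.40% and 6.04%, against 2.83% and 1.72%). It also held for Slc26a3 (3.86% and 4.90%, against 2.11% and 1.76%) and, by smaller margins, for Aqp8 and Cyp2c55. Mptx1 and Phgr1 did not exceed both spleen values. No test was made between the classes.

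Further gut genes outside the list, chosen by cell type, mostly followed the division. These lists were chosen with earlier results of these data known, so they are a description and no independent support. In colon macrophages against spleen monocytes, 18 of 25 further colonocyte genes and 14 of 20 further goblet and secretory genes were higher (limma), as were 31 of 35 adhesion, junction and transcription genes of epithelia, beside 6.93% of all genes. Atoh1, the factor that commits crypt cells to secretory fates, was the 1 gene of these lists lower in colon macrophages (-1.17 ± 0.19; adjusted p = 0.00762). Against colon macrophages, 15, 13 and 25 of these were lower in F4/80-high TAM (3.72% of all genes), and 15, 14 and 23 in Ly6C-high TAM (4.16%). In F4/80-high TAM 1 further goblet and secretory gene and 1 adhesion, junction and transcription gene were higher (2.68% of all genes). In Ly6C-high TAM 1 further goblet and secretory gene was higher (2.74%). Stem and crypt genes were higher in colon macrophages for 8 of 17, including Lgr5, the receptor that marks intestinal stem cells (7.40 and 7.78 in colon, against 5.84 and 5.71 in spleen). Enteroendocrine genes were higher for 5 of 14, with Insl5, a hormone of colonic endocrine cells, at 8.07 and 9.27 in colon macrophages, against 5.94 and 5.96 in spleen monocytes. Tuft cell genes were higher for 1 of 12, near the share of all genes, namely Ptgs1, a prostaglandin synthase that was also higher in both tumour groups. Small intestine and Paneth genes were higher for 3 of 20, Clec2h, Slc5a1 and Reg3b. Stratified epithelium genes were called for 0 of 13 and genes of unrelated tissues for 0 of 19, and their medians in colon minus spleen were -0.09 and -0.10.

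**Figure D5:**
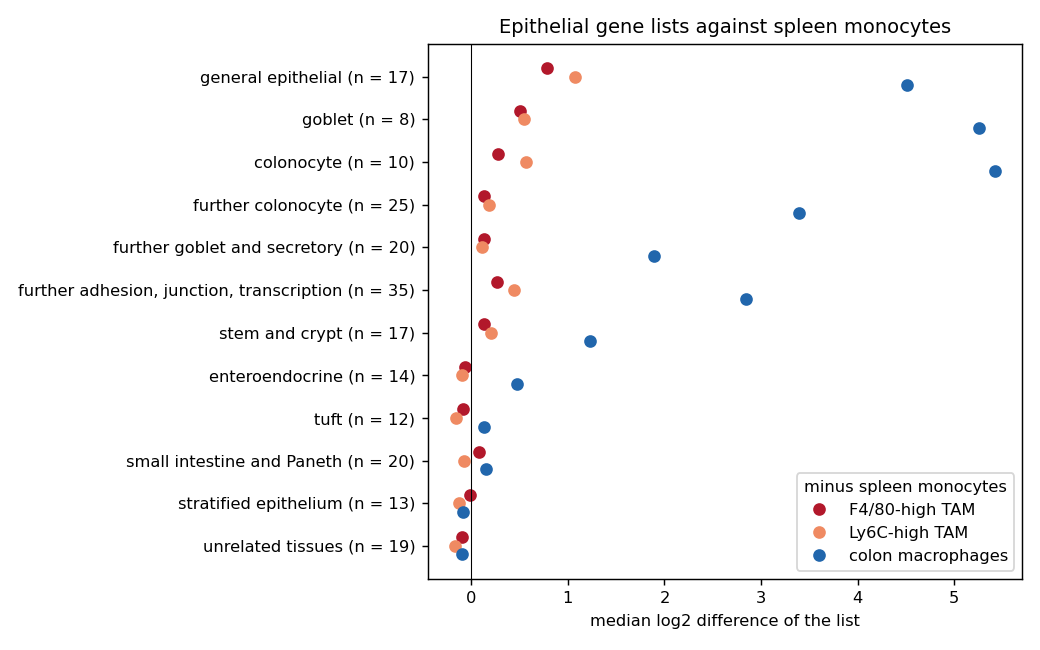
Median log2 difference from spleen monocytes of each epithelial gene list and of the unrelated genes (rows, with the number of measured genes) in F4/80-high TAM, Ly6C-high TAM and colon macrophages (colours). Colon medians run from 5.43 for colonocyte genes to near 0 for tuft, stratified and unrelated genes, and the highest tumour median among these lists is 1.07.

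Some genes on the further lists were high in every tissue macrophage group. Spint1, a membrane protease inhibitor of epithelia, was 11.69 and 12.14 in F4/80-high TAM, 12.24 and 12.18 in Ly6C-high TAM, 11.97 and 11.96 in colon macrophages and 7.55 and 7.17 in spleen monocytes. The 6 tissue arrays lay together, and Spint1 was 23.5-fold, 28.9-fold and 24.4-fold higher than in spleen monocytes (limma adjusted p = 0.000101, 0.000128 and 0.00012). Emp1, a membrane protein of many cell types, was 12.02 and 12.63 in F4/80-high TAM and 11.93 and 12.81 in Ly6C-high TAM, against 8.32 and 8.12 in spleen monocytes. Fabp2, the intestinal fatty acid binding protein, had another pattern, with 4.81 and 4.55 in F4/80-high TAM, 4.50 and 4.54 in Ly6C-high TAM, 9.22 and 10.29 in colon macrophages and 4.76 and 4.52 in spleen monocytes.

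Outside every epithelial list, the 5 genes whose values over the 8 arrays were most like the mean of the members were Smim31, Tfcp2l1, Mgam, Eps8l3 and Acsm3, with Pearson r from 0.997 to 0.999, given as a description of arrays that fall into distinct groups. Mgam, the brush border enzyme maltase-glucoamylase, was 5.75 and 7.37 in F4/80-high TAM, 6.15 and 7.93 in Ly6C-high TAM, 10.17 and 11.06 in colon macrophages and 6.15 and 5.95 in spleen monocytes. Tfcp2l1, a transcription factor of several epithelia, was 6.76 and 8.02 in F4/80-high TAM and 6.81 and 8.58 in Ly6C-high TAM, against 10.68 and 11.45 in colon macrophages. Among the members themselves, Spink4, a goblet cell protease inhibitor, and Vil1, the brush border actin bundler villin, were closest to the members' mean (r = 0.998 for both), and Ceacam1 (0.53), Krt8 (0.83) and Cdh1 (0.83) were farthest from it.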

How the data were processed

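Biotin-labelled total RNA of 8 samples was measured on Affymetrix mouse arrays. The authors deposited log2 values from RMA, made in Partek 6.6 per the submitters' processing notes, and every fold here is on that scale. No genome build is named in these sources. Values covered 35556 probe sets, of which 24692 had a symbol in a deposited annotated table. The 8 value columns of that table matched no label and were not used. RefSeq accessions matched 21023 of these and gene identifiers 2052, which changed 2361 symbols, and 1617 unmatched symbols were kept. Clca1 was the probe set deposited as Clca3, and Mptx1 that deposited as 1810030J14Rik.

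The fit used limma 3.58.1 (R 4.3.3) on group means over all 8 arrays, with Benjamini-Hochberg adjustment over 21418 genes per comparison. A call needed a fold of at least 2 with an adjusted p of at most 0.05, as in the submitters' own selection. The fit had 4 residual and 2.64 prior degrees of freedom and was tested on simulated data with independent noise on each array. That test held no shift shared between arrays, so it does not bear on the replicate shifts seen here. The rule for named genes took all measured members, up to 4 called genes of each further list per comparison with spleen monocytes by largest fold, the markers Adgre1, Ly6c2 and Csf1r, and the 5 genes most like the members' mean. Members and lists were chosen with earlier results of these data known. Alternatives were median centring, quantile normalization, a filter on dim genes, the mean of all probe sets, a replicate block and leaving out arrays. The number of arrays limits the precision. Promoter windows came from RefSeq, GRCm38.p6, and 9 members had no entry.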

Additional observations from a re-analysis of the deposited data

How the results depend on the processing

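Every called member kept its direction under all alternatives. With 1 array left out, the members lower than in colon macrophages numbered 10 to 33 in F4/80-high TAM and 9 to 30 in Ly6C-high TAM, and those higher in colon macrophages than in spleen monocytes 12 to 34. Relative to spleen monocytes, 0 to 2 members were higher in F4/80-high TAM and 0 to 5 in Ly6C-high TAM, and 1 and 0 to 1 lower. All other counts stayed at 0. Leaving out both tumour replicate 2 arrays, chosen after seeing the data, gave 35 members lower in Ly6C-high TAM than in colon macrophages (5.36% of all genes) and 2 higher in F4/80-high TAM than in spleen monocytes (5.63%). Leaving out both tumour replicate 1 arrays, chosen likewise, gave 14 higher in F4/80-high TAM (8.36% of all genes) and 16 in Ly6C-high TAM (8.79%) than in spleen monocytes. Under median centring 0 members were lower in Ly6C-high TAM than in spleen monocytes, since Ceacam1 missed the threshold (adjusted p = 0.0698). Centring moved the median of all genes in F4/80-high TAM minus colon macrophages to 0.18 and the calls over all genes to 811 higher and 636 lower, beside 573 and 796, and the members lower to 24. In that comparison the filter on dim genes, which kept 12973 genes, gave 27.

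Same-numbered arrays deviated together in the tumour groups, where the gaps between replicates had r = 0.770 over all genes, but not across all groups: r was between -0.155 and 0.259 for the other pairs of groups, so the replicate numbers were not taken to pair the samples. With a replicate block, 30 members were lower in F4/80-high TAM and 29 in Ly6C-high TAM than in colon macrophages, and the other counts did not move. The cause of these shifts was not tested, and with 2 arrays a group a single array decides many calls.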

Other observations

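In colon macrophages against spleen monocytes, limma called 1 of 9 B cell and plasma cell genes higher (median difference -0.11), 3 of 11 T cell and innate lymphoid genes (median -0.25) and 3 of 12 fibroblast genes (median 1.20), beside 6.93% of all genes. Fibroblast genes were higher than in spleen monocytes for 2 of 12 in F4/80-high TAM (median 1.32), beside 4.58% of all genes. In Ly6C-high TAM there were 4 of 12 (median 1.98), beside 2.88% of all genes. Jchain, the joining chain of secreted IgA and IgM from plasma cells, was 5.19 and 8.96 in F4/80-high TAM, 5.91 and 8.25 in Ly6C-high TAM, 11.67 and 11.73 in colon macrophages and 7.50 and 6.29 in spleen monocytes. It was higher in colon macrophages than in spleen monocytes by 4.81 ± 1.27 (limma adjusted p = 0.0427), and tumour replicate 2 again stood above replicate 1. Dcn, a matrix proteoglycan of fibroblasts, was 10.82 and 11.69 in F4/80-high TAM, 11.50 and 12.56 in Ly6C-high TAM, 10.41 and 11.00 in colon macrophages and 6.26 and 5.78 in spleen monocytes. The 6 arrays of gut and tumour lay well above the spleen arrays. Dpt, a fibroblast matrix protein, was 5.19 and 7.22 in F4/80-high TAM, 5.23 and 8.62 in Ly6C-high TAM, 8.84 and 9.31 in colon macrophages and 4.72 and 4.78 in spleen monocytes. Mast cell genes, neutrophil genes and genes of enteric glia and nerve had median differences of 0.00, -0.69 and -0.04 in colon macrophages minus spleen monocytes.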
